A study of Homo sapiens with 6 samples.

Results

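The BCL2 family decides whether the outer membrane of the mitochondrion stays intact, and the 10 genes described here are its best known members in breast cancer cells: BCL2, BCL2L1, MCL1, BCL2A1, BAX, BAK1, BID, BCL2L11, PMAIP1 and BBC3. They were picked out by gene symbol from 46427 genes counted. RNA was sequenced from Hs578T, an established triple-negative breast cancer cell line, in 3 libraries of a control line (shCTRL) and 3 libraries of a CCN3 knockdown line (shCCN3), where CCN3 encodes a secreted matricellular protein. Both lines carried a retroviral pSUPER vector that expresses a short hairpin RNA (shRNA) and were selected with puromycin; the labels name no agent that triggers apoptosis. A single shRNA and a single stable line stood for each arm, so the effect of losing CCN3 cannot be told apart from other differences between these lines.

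Proteins of this family fall into 3 roles. Anti-apoptotic members (BCL2, BCL-XL from BCL2L1, MCL1 and BFL1 from BCL2A1) hold the others in check by binding their BH3 helix. Effectors (BAX and BAK1) oligomerize in the outer mitochondrial membrane and release cytochrome c, which starts the caspase cascade. BH3-only proteins (BID, BIM from BCL2L11, NOXA from PMAIP1 and PUMA from BBC3) sense stress and either block the anti-apoptotic members or activate the effectors directly. Much of this control acts on proteins, by cleavage, phosphorylation and turnover, which RNA counts do not show, and gene counts also join isoforms of opposite action such as the long and short forms of BCL2L1.

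The largest changes in the family were a rise of BBC3 and a fall of BCL2L1, and the start regions of the called genes that had an entry in the promoter table are shown so that they can be set against those changes. Each sequence runs 5′ to 3′ on the strand of the gene, on GRCh38.p14, from 250 bases before a transcript start to base 50 of the transcript. That start is the RefSeq gene start for BAK1, BCL2L1 and BID. Capitals mark motifs found by letter search, which were absent from BAK1 and BID; CCAAT and GC boxes were searched too and stay in lower case. BBC3 lies at chr19:47232618-47232917, BAK1 at chr6:33580227-33580526, BCL2L1 at chr20:31723914-31724213 and BID at chr22:17774616-17774915, all on the minus strand. The RefSeq gene of BBC3 reaches to 47232860, so the start that its window uses lies inside the annotated gene.
BBC3: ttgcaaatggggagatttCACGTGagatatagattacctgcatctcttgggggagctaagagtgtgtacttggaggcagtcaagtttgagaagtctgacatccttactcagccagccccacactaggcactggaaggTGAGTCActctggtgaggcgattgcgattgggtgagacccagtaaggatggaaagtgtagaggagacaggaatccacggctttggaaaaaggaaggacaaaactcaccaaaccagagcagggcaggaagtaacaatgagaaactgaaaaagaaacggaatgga
BAK1: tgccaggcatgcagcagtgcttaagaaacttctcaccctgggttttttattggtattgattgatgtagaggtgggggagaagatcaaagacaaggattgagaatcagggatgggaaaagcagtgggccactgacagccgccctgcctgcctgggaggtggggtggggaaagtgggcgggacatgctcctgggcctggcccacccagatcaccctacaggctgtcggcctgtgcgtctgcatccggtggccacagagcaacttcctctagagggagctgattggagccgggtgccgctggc
BCL2L1: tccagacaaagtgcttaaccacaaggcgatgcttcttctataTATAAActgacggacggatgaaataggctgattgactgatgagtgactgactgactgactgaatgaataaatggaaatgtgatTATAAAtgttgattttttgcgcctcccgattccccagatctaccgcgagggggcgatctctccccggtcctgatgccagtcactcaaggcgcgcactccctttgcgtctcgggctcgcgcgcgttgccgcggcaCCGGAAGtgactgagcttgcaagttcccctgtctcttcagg
BID: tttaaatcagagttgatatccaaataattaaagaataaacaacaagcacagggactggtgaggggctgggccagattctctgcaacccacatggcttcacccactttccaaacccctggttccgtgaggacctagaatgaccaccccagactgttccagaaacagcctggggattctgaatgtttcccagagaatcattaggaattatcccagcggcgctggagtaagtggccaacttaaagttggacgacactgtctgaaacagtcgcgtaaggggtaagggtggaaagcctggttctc

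These windows had no motif in common among the capitals. Positions are counted from the start that each window uses. The BBC3 window held an E-box (CACGTG, bound by MYC and related factors) at -232 to -227. It also held an AP-1 site (TGANTCA, bound by JUN and FOS proteins) at -113 to -107 and a CCAAT box at -87 to -83, both inside the annotated gene. Among all 35116 promoter windows of the same length, 7.26% held that E-box and 7.71% that AP-1 site on either strand. BAK1 held GC boxes (GGGCGG, 45.0% of windows) at -114 to -109 and at -78 to -73, and, like BBC3, CCAAT boxes (CCAAT, 34.6% of windows), at -202 to -198 and at 29 to 33. The BCL2L1 window, 1 of 2 listed for that gene, held the TATA box letters (TATAAA, 11.5% of windows) at -208 to -203 and at -125 to -120. It also held an ETS site (CCGGAAG, 10.3% of windows) at 10 to 16. The BID window was 1 of 5 listed for that gene, and the others are not described here. None of the motifs searched, including the FOXO site GTAAACA (3.42% of windows), the ATF4 and CHOP composite site TGATGNAA (3.62%) and the CCAAT box, was found in that BID window. BAX, whose RNA did not pass the test, held 4 E-boxes in its window. A match gives letters, not binding, and binding of factors was not measured in these data.

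CCN3 itself was lower in every shCCN3 library. Its level as CPM (counts per 1000000 counts of a library, scaled between libraries by TMM factors) was 103, 102 and 98.1 in the shCTRL libraries and 47.4, 47.2 and 46.5 in the shCCN3 libraries, a fall of 1.10 on the log2 scale (SE 0.055, edgeR adjusted p = 1.34e-06). Total counts per library ran from 56159110 to 68393177, so that 3 counts correspond to between 0.0435 and 0.0540 CPM. The cells expressed VIM, FN1, AXL and SPARC, mesenchymal genes, with a summed level of the 6 mesenchymal markers between 11797 and 12211 CPM in all libraries. The 6 luminal and epithelial markers summed to between 7.05 and 8.94 CPM, with PGR, FOXA1 and GATA3 present at low levels and ESR1, CDH1 and EPCAM at 10 counts or fewer in every library. The leukocyte markers summed to at most 0.828 CPM, most of it CD14, with CD3E and ITGAM at 0, and the 4 endothelial markers summed to at most 5.41 CPM, most of it PECAM1, with CDH5 at 0. The shCCN3 replicate 2 library stood apart from its group. Its paired comparisons with the other shCCN3 libraries gave 37.6 and 46.0 chi-square per degree of freedom, against 9.90 for the pair without it, and values that turn on it are given with and without it.

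Of the 10 members, 9 had enough counts to be tested and 5 passed an adjusted p of 0.05 in edgeR's quasi-likelihood test. BBC3, BAK1 and MCL1 rose, BCL2L1 and BID fell, and BCL2, BAX, BCL2L11 and PMAIP1 did not pass. The share of all 17419 tested genes that passed was 33.4%, with 16.2% higher and 17.3% lower, so a call was common among genes of any kind. These are bulk RNA levels, in which fewer cells expressing a gene and less RNA per cell cannot be told apart. The groups did not overlap for 6 of the 9 members, where 46.3% of all tested genes had no overlap. The median absolute log2 fold change of the 9 members was 0.24, and that of all tested genes was also 0.24, so their typical change was of ordinary size. The median signed change was 0.18 for the members and 0.01 for all tested genes. BBC3 was the one member both called and changed at least 2-fold, as were 8.1% of all tested genes. Its absolute change was exceeded by 6.39% of tested genes, whereas 27.0% had a larger one than BCL2L1 and 30.9% than BAK1.

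**Figure D1:**
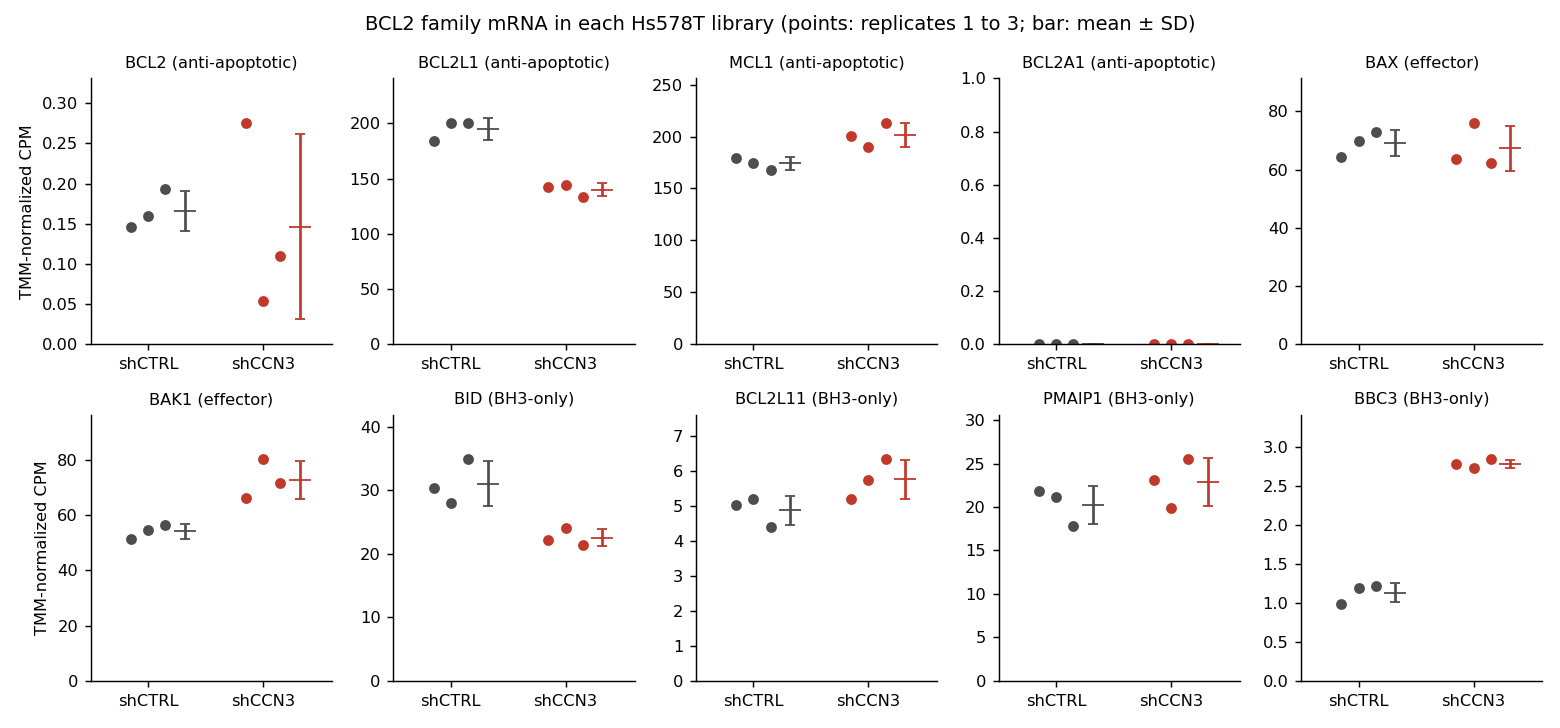
TMM-scaled CPM of each BCL2 family member in the 3 shCTRL and 3 shCCN3 libraries, with 1 point per library and the mean ± SD as a bar, each axis starting at 0. The shCCN3 points of BBC3, near 2.79 CPM, lie above all shCTRL points, and those of BCL2L1, near 140 CPM, lie below them, while the groups of BAX overlap.

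Among the anti-apoptotic members, BCL2L1 and MCL1 moved in opposite directions. BCL2L1, which encodes BCL-XL (chromosome 20, 31664452 to 31723963, Entrez gene 598), stood at 184, 200 and 201 CPM in shCTRL and at 142, 144 and 133 CPM in shCCN3. Every shCCN3 library lay below every shCTRL library, with means of 195 ± 9.74 and 140 ± 5.71 CPM (SD, n = 3 each). The change was -0.48 on the log2 scale (SE 0.062, edgeR adjusted p = 0.000383), 1.39-fold lower. Leaving out any single library kept it between -0.52 and -0.44, past the threshold each time. The antisense gene BCL2L1-AS1 overlaps it, and whether the counting used strand is not given in the sources used here.

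MCL1, a short-lived protein that binds BIM and NOXA (chromosome 1, 150574558 to 150579610, Entrez gene 4170), was at 180, 175 and 168 CPM in shCTRL and at 201, 190 and 213 CPM in shCCN3. All shCCN3 values were above all shCTRL values, and the nearest libraries of the groups were at 180 and 190 CPM. The means were 174 ± 6.04 and 201 ± 11.6 CPM (SD, n = 3 each), a log2 change of 0.21 (SE 0.063, edgeR adjusted p = 0.0296). This call was the least stable of the 5: it was lost in 5 of the 6 fits that left out a library, with edgeR adjusted p up to 0.108, and was kept only without shCCN3 replicate 2, at 0.00439. The direction was upward in each of those fits, between 0.17 and 0.25.

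BCL2 and BCL2A1 carried almost no RNA here. BCL2, the founding member of the family and in breast cancer mostly a gene of luminal tumours, had 10, 10 and 13 counts in the shCTRL libraries and 19, 3 and 7 counts in the shCCN3 libraries. The groups overlapped, and the log2 change of -0.14 had an SE of 0.574 (edgeR adjusted p = 0.879), so no difference was detectable at this depth. Leaving out shCCN3 replicate 2 turned its sign to 0.22. BCL2A1, which encodes BFL1 and is best known in blood cells, had 0 counts in all 6 libraries and was not tested. The upper interval limit for 0 counts is an expected count of about 3 in a library, or 0.0435 to 0.0540 CPM. It covers counting error alone and is not a fixed maximum.

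The effector pair split. BAK1 (chromosome 6, 33572552 to 33580276, Entrez gene 578), which sits in the outer mitochondrial membrane from the start, was at 51.2, 54.6 and 56.5 CPM in shCTRL and at 66.3, 80.2 and 71.6 CPM in shCCN3. No shCCN3 library was as low as a shCTRL library, and shCCN3 replicate 2 was the highest. Group means were 54.1 ± 2.71 and 72.7 ± 6.99 CPM (SD, n = 3 each), a rise of 0.42 on the log2 scale (SE 0.080, edgeR adjusted p = 0.00313), or 1.34-fold. The rise lay between 0.35 and 0.49 in the fits without 1 library.

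A nearly identical processed copy, BAK1P1 on chromosome 20, makes the BAK1 count uncertain. BAK1P1 held 8.41% to 10.4% of the summed counts of the pair in the 6 libraries, and the reads of the copies may be split between them. Adding both counts, an alternative chosen after the data were seen, gave a log2 change of 0.43 (edgeR adjusted p = 0.00372), close to that of BAK1 alone.

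BAX (chromosome 19, 48954875 to 48961798, Entrez gene 581), which moves from the cytosol to the membrane when activated, was at 64.3, 70.0 and 73.0 CPM in shCTRL and at 63.6, 76.1 and 62.2 CPM in shCCN3. The highest and the lowest library were both shCCN3 libraries, and the groups overlapped throughout. The log2 change was -0.04 (SE 0.089, edgeR adjusted p = 0.784), and it ran from -0.13 to 0.02 when single libraries were left out.

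Among the BH3-only members, BBC3 rose, BID fell and the other 2 did not pass the test. BBC3, which encodes PUMA, a potent activator of apoptosis (chromosome 19, 47220824 to 47232860, Entrez gene 27113), had 68, 75 and 82 counts in shCTRL and 192, 152 and 182 counts in shCCN3, equal to 0.990, 1.19 and 1.22 CPM against 2.79, 2.74 and 2.85 CPM. The 3 shCCN3 values lay close together and all far above the shCTRL values. Means were 1.14 ± 0.127 and 2.79 ± 0.0551 CPM (SD, n = 3 each), and the log2 change was 1.30 (SE 0.157, edgeR adjusted p = 0.000236), a 2.46-fold rise. It stayed between 1.21 and 1.35 in the fits without 1 library. BBC3 was nevertheless a low gene, and its span in RefSeq also holds the microRNA genes MIR3190 and MIR3191.

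BID, which is cut by caspase 8 into the active form tBID and so links death receptors to mitochondria (chromosome 22, 17734138 to 17774665, Entrez gene 637), went the other way. It was at 30.4, 28.0 and 34.9 CPM in shCTRL and at 22.1, 24.1 and 21.4 CPM in shCCN3, without overlap. The means of 31.1 ± 3.50 and 22.5 ± 1.37 CPM (SD, n = 3 each) gave a log2 change of -0.46 (SE 0.093, edgeR adjusted p = 0.00433), 1.38-fold lower. Its range without 1 library was -0.53 to -0.37.

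BCL2L11, which encodes BIM, and PMAIP1, which encodes NOXA and mainly opposes MCL1, did not pass the test. BCL2L11 was at 5.02, 5.21 and 4.41 CPM in shCTRL and at 5.21, 5.74 and 6.33 CPM in shCCN3, where the nearest libraries of the groups were almost equal. Its log2 change was 0.24 (SE 0.120, edgeR adjusted p = 0.16). PMAIP1 was at 21.8, 21.1 and 17.8 CPM in shCTRL and at 23.2, 19.9 and 25.5 CPM in shCCN3, and the groups overlapped through shCCN3 replicate 2. Its log2 change was 0.18 (SE 0.111, edgeR adjusted p = 0.262), and without shCCN3 replicate 2 it was 0.27 (edgeR adjusted p = 0.0494), so this call depended on 1 library. BCL2L11 counts join the BIM isoforms, which differ in activity and cannot be told apart here.

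**Figure D2:**
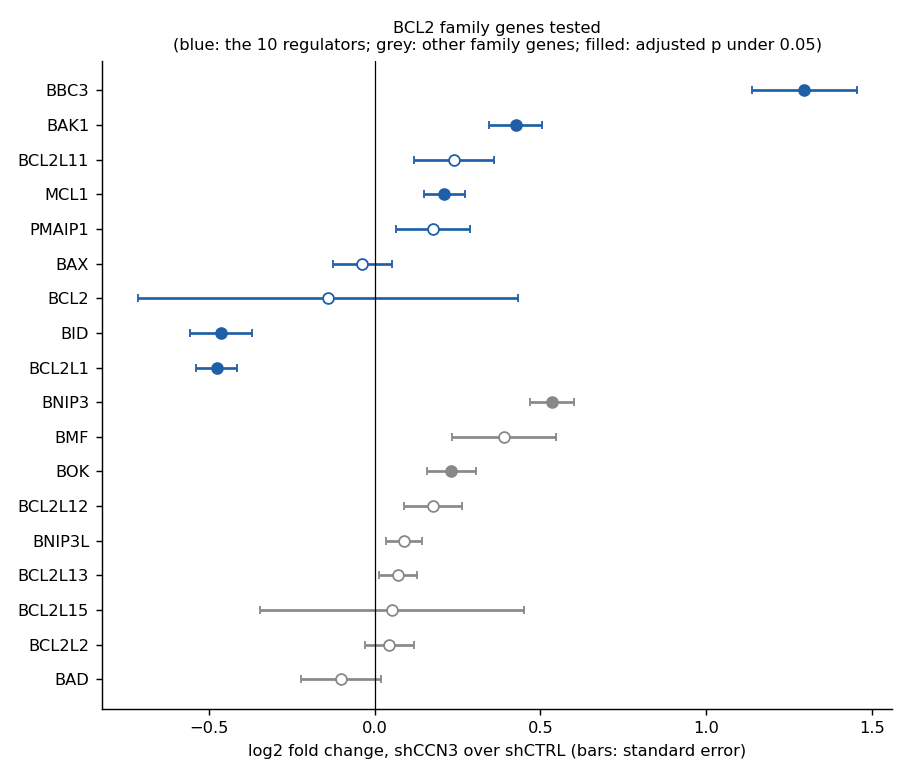
Log2 fold change of shCCN3 against shCTRL for the 9 tested members (blue) and the 9 tested further family genes (grey) from the edgeR fit, with the SE as bars and filled points where the adjusted p was under 0.05. BBC3 lies at 1.30, BCL2L1 and BID near -0.48 and -0.46, and the bar of BCL2 (SE 0.574) spans 0.

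Per length, BCL2L1 and MCL1 had the most RNA among the 10 members. The order does not hold for the wider family, whose further genes were not ranked. BAD, one of those, had 113 CPM over 1708 exon bases in shCTRL, against 195 CPM over 3314 for BCL2L1. In shCCN3 the levels of these genes were 105 and 140 CPM. In CPM per kilobase of exon (GENCODE 29 exons joined per gene), the order in shCTRL was BCL2L1 at 58.8, MCL1 at 39.8, BAX at 26.7, BAK1 at 24.5, PMAIP1 at 9.05, BID at 6.99, BCL2L11 at 0.733, BBC3 at 0.357, BCL2 at 0.0141 and BCL2A1 at 0. Only BAX and BAK1 were neighbours whose libraries overlapped in that order. In shCCN3, MCL1 (46.1) stood first, with libraries that overlapped those of BCL2L1 (42.2), followed by BAK1 (32.9), BAX (26.0), PMAIP1 (10.2) and BID (5.07). BBC3 (0.877) and BCL2L11 (0.865) overlapped there, whereas in shCTRL the BBC3 level was below that of BCL2L11 in every library. All the exons of a gene enter these lengths, whichever isoform the cells use.

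The balance between members within 1 library needs no scaling between libraries, so it was described by ratios of CPM per kilobase. BCL2L1 to MCL1 was 1.35, 1.51 and 1.58 in shCTRL and 0.935, 1.00 and 0.825 in shCCN3, without overlap, with means of 1.48 ± 0.119 and 0.920 ± 0.0884 (SD, n = 3 each). Of the RNA of the 4 anti-apoptotic members, BCL2L1 supplied 59.6% ± 1.97 in shCTRL and 47.8% ± 2.43 in shCCN3 (SD, n = 3 each), on the same scale. That sum leaves out BCL2L2, a further anti-apoptotic gene of the family, at 42.9 CPM in shCTRL and 44.2 CPM in shCCN3, so the shares are not of all anti-apoptotic RNA. BAK1 to BAX was 0.931, 0.913 and 0.906 in shCTRL and 1.22, 1.23 and 1.35 in shCCN3, without overlap. With the counts of BAK1P1 added to BAK1, the same ratio was 1.02, 1.02 and 0.997 in shCTRL and 1.35, 1.37 and 1.47 in shCCN3, so which effector RNA was the more abundant in shCTRL depends on how the reads of the copy are assigned.

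BBC3 also shifted relative to BCL2L1, whose protein binds PUMA, and to BID, another BH3-only gene. BBC3 to BCL2L1 was 0.00562, 0.00621 and 0.00635 in shCTRL and 0.0204, 0.0198 and 0.0222 in shCCN3, which is 3.43 times as high on average. BID to BBC3 fell from 22.0, 16.7 and 20.4 to 5.67, 6.29 and 5.39. BAX and BAK1 summed, set against BCL2L1 and MCL1 summed, gave 0.497, 0.515 and 0.544 in shCTRL and 0.614, 0.755 and 0.633 in shCCN3. These ratios are descriptions of genes whose levels are given above, with no test of their own, and they say nothing of protein amounts.

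Whole chromosomes differed between the lines, so each member was set beside its neighbourhood. Chromosome 6 had a median log2 change of 0.34 over 891 tested genes and chromosome 7 one of -0.43 over 821. BAK1 lies on chromosome 6. Its change of 0.42 was 0.09 above the chromosome's median, and 22 of its 24 nearest tested genes were higher in shCCN3, with a median of 0.26. How far the shift of the chromosome carries the rise of BAK1 was not tested.

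The remaining called members lie on chromosomes with smaller shifts. For BBC3 the change of 1.30 stood beside -0.05 as the median of the 24 tested genes nearest to it and 0.02 for chromosome 19. BCL2L1, at -0.48, had neighbours with a median of 0.04, of which 13 of 24 were higher, on a chromosome with a median of -0.12. BID changed by -0.46 beside neighbours at -0.08 and a chromosome 22 median of -0.06. MCL1 changed by 0.21 beside neighbours at 0.07 and a chromosome 1 median of -0.13 over 1737 genes. Copy number was not measured in these data.

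Among 13 further genes of the wider BCL2 family, 9 were tested (BCL2L10, BIK, HRK and BCL2L14 were too low) and 2 passed (22.2%, against 33.4% of all tested genes), both higher, with a median log2 change of 0.09. BNIP3, a hypoxia-induced mitophagy receptor, rose from 131 ± 7.11 to 189 ± 9.62 CPM (SD, n = 3 each), by 0.53 on the log2 scale (SE 0.066, edgeR adjusted p = 0.000259). BOK, an effector-like relative of BAX, rose from 32.2 ± 2.64 to 37.8 ± 0.634 CPM (log2 change 0.23, SE 0.074, edgeR adjusted p = 0.039), a call kept without shCTRL replicate 3 or shCCN3 replicate 2 and lost without any of the other 4 libraries (edgeR adjusted p up to 0.141). None fell, by edgeR, DESeq2 or limma-voom, and at an unadjusted p of 0.05 the counts were 3 higher and 0 lower. The BH3-only genes BMF (0.39, edgeR adjusted p = 0.0891) and BAD (-0.10, edgeR adjusted p = 0.567, or -0.25 and 0.0356 without shCCN3 replicate 2) and the anti-apoptotic BCL2L2 (0.04, edgeR adjusted p = 0.701) did not pass, nor did BCL2L12 (0.17), BCL2L13 (0.07), BCL2L15 (0.05) and BNIP3L (0.09).

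Death receptors feed into BID through caspase 8, and 8 of 13 tested genes of that pathway passed (61.5%, against 33.4% of all tested genes), 4 higher and 4 lower, with a median log2 change of -0.05. FAS, a receptor, rose from 9.61 ± 0.602 to 15.2 ± 0.736 CPM (0.66, edgeR adjusted p = 0.000348), and RIPK1, a kinase of the receptor complex on chromosome 6, rose from 23.6 ± 0.288 to 36.6 ± 2.21 CPM (0.63, edgeR adjusted p = 0.000127). CFLAR, which blocks caspase 8, rose by 0.23 on the log2 scale (edgeR adjusted p = 0.0219), a call that likewise held only without shCTRL replicate 3 or shCCN3 replicate 2 and reached an edgeR adjusted p of 0.11 otherwise. Of the 4 TRAIL receptor genes, 3 fell: TNFRSF10A from 9.81 ± 0.563 to 4.43 ± 0.557 CPM (edgeR adjusted p = 7.59e-05), the decoy TNFRSF10D by 0.71 on the log2 scale (edgeR adjusted p = 0.00114) and TNFRSF10B by 0.33 on the log2 scale (edgeR adjusted p = 0.00515). The decoy TNFRSF10C, named after its values were seen, went from 0.350 to 0.722 CPM and did not pass (log2 change 1.05, SE 0.387, edgeR adjusted p = 0.0657). These 4 receptor genes lie together on chromosome 8 (23020133 to 23225102), so their changes may not be independent. Their ligand TNFSF10, or TRAIL, named after its values were seen, had 11, 4 and 7 counts in shCTRL and 82, 87 and 104 in shCCN3 (log2 change 3.70, SE 0.332, edgeR adjusted p = 3.81e-05). CASP8, the caspase 8 gene, was also named after its values were seen. It fell from 26.6 to 21.6 CPM (log2 change -0.30, SE 0.086, edgeR adjusted p = 0.0263). Leaving out any 1 shCTRL library left 3 lower calls in the pathway (TNFRSF10A, TNFRSF10D and TNFRSF10B), so the CASP8 call was lost.

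Downstream of the mitochondrion, 5 of 14 tested genes of the apoptosome and caspases passed and all 5 were lower (35.7%, close to the 33.4% of all tested genes), with a median log2 change of -0.10. CASP9, the caspase of the apoptosome, fell from 20.1 ± 0.487 to 14.3 ± 0.303 CPM (-0.50, edgeR adjusted p = 0.000584). CASP2 fell by 0.49 on the log2 scale (edgeR adjusted p = 0.00089) and lies on chromosome 7, whose median was -0.43. DFFB, the nuclease that cuts DNA in dying cells, changed by -0.31 (edgeR adjusted p = 0.0405), a call kept without shCTRL replicate 1 and lost without any of the other 5 libraries (edgeR adjusted p up to 0.171). None rose by edgeR, DESeq2 or limma-voom, where an unadjusted p of 0.05 gave 2 higher and 5 lower. Of the inhibitors of apoptosis, 2 of 6 tested passed, the same share as over all tested genes (33.3% and 33.4%), both higher: BIRC3 from 5.34 ± 0.497 to 9.88 ± 1.06 CPM (0.89, edgeR adjusted p = 0.000371) and BIRC2 from 40.9 ± 4.55 to 60.8 ± 3.28 CPM (0.57, edgeR adjusted p = 0.000944), and neither these tools nor an unadjusted p of 0.05 gave a lower one. The median of the 6 tested inhibitors was 0.17. BIRC3 and BIRC2 lie close together on chromosome 11, so their changes may not be independent.

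Among genes that act on the members by other routes, 9 of 13 tested passed (69.2%, against 33.4% of all tested genes), 7 higher and 2 lower, with a median log2 change of 0.25. FOXO1, of a transcription factor family known to act on BCL2L11 and BBC3, rose from 6.03 ± 0.262 to 11.3 ± 0.463 CPM (0.91, edgeR adjusted p = 5.93e-05). TRIB3 and DDIT3, genes of the endoplasmic reticulum stress response, rose by 0.60 (edgeR adjusted p = 0.00198) and by 0.59 (edgeR adjusted p = 0.00133). FBXW7, part of a ligase that marks MCL1 for degradation, fell from 14.3 ± 1.04 to 10.8 ± 0.807 CPM (-0.40, edgeR adjusted p = 0.00947, and 0.0526 without shCTRL replicate 2). JUN, a subunit of AP-1, fell from 260 ± 2.25 to 207 ± 10.8 CPM (-0.33, edgeR adjusted p = 0.00209). Whether any of these changes bears on the members was not tested.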

How the data were processed

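RNA of 6 Hs578T libraries, 3 shCTRL and 3 shCCN3, was prepared with a stranded poly(A) kit. Per the labels and the submitters' processing notes, the authors made the deposited counts, which are raw counts per gene, with bcl2fastq 2.20.0, Trimmomatic, HISAT2 2.1.0 and StringTie 2.1.3d on GRCh38; the annotation and strand setting of the counting are not given in the sources used here. Genes were filtered with filterByExpr, scaled by TMM and tested with edgeR 4.0.16 (quasi-likelihood, R 4.3.3), with Benjamini-Hochberg adjustment over all 17419 tested genes. The SE is the absolute log2 change divided by the square root of F. Promoter windows and gene positions came from RefSeq (GRCh38.p14), where 44694 of 46427 gene IDs matched and 9 of the 10 members had a window. Where a gene had several, that of its RefSeq start was used, and the only window of BBC3 had its start inside the gene. The fit was tested on simulated data first. Alternatives were DESeq2 1.42.0, limma-voom (limma 3.58.1), RLE and upper-quartile factors, no filter, at least 10 counts in every library, a replicate block and leaving out each library.

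The series text calls the libraries of a group biological replicates; p-values measure the spread between them, and intervals for 0 counts cover counting error only. An exact permutation test of 3 against 3 cannot go below p = 0.1. Members and lists were chosen with earlier results of these data known. Named were CCN3, all members and the 13 further family genes. Each pathway list gave at most 3 genes a direction, with the largest change among those called with a mean of at least 1 CPM. TNFSF10, TNFRSF10C and CASP8 were added after their values were seen. A further list of genes is not reported here.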

Additional observations from a re-analysis of the deposited data

How the results depend on the processing

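BBC3, BCL2L1, BAK1 and BID kept their direction and their call under all alternatives run, as did CCN3. MCL1 kept its direction, but with a replicate block its change of 0.21 no longer passed (edgeR adjusted p = 0.0957), and without single libraries it ran from 0.17 to 0.25. PMAIP1 ran from 0.092 to 0.27 without single libraries, BCL2 from -0.99 to 0.22, BAX from -0.13 to 0.016, BCL2L2 from -0.013 to 0.094, BAD from -0.25 to 9.5e-05 and BCL2L15 from -0.27 to 0.39, so the last 5 had no stable sign. The number of members called was 4 to 6 without single libraries. Of the further family genes, 1 was called with no filter on low counts and 1 with the replicate block, and 1 to 3 without single libraries; the apoptosome list gave 3 to 5 and the upstream regulators 5 to 12. The number of genes called overall was 4181 without shCTRL replicate 2 and 7229 without shCCN3 replicate 2.

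The replicate numbers did not pair the samples: the deviations of same-numbered libraries correlated at 0.149, -0.0726 and -0.259. The block gave 4887 calls in place of 5825 and 4 members in place of 5, the one lost being MCL1; BOK, CFLAR and DFFB also lost their calls. The median of the genes nearest to BCL2L11 was -0.42 and moved to -0.20 and -0.55 under the other filters, and that of PMAIP1 moved from 0.12 to 0.35 with no filter. Depth limits BCL2 and BCL2A1, which had at most 19 counts in a library. The causes of these shifts were not tested.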
